A study of Homo sapiens with 48 samples.

Results

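The genes described here are those whose RNA was lower at every sampled hour of cytokine treatment in control CRISPRko fibroblasts. They were selected on CPM, a gene's estimated count scaled to a common library total, averaged over the 3 H47_Ctrl libraries of each time. A gene was a member when its mean was at least 5 CPM at 0 h and its means at 6, 12 and 24 h were each no more than 0.5 times the 0 h mean. This left 75 members of 29744 genes, or 0.916% of the 8192 genes that reached 5 CPM at 0 h. The fall in H47_Ctrl chose the members and is given below as a description. The other 3 cell populations played no part in the choice, and each has its own 0 h libraries.

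All cells were IL11mNG fibroblasts, single-cell-derived reporter clones of the immortalized human skin fibroblast line CRL-4001 in which mNeonGreen reports IL11. The H47 pair carried Cas9 with a non-targeting guide (H47_Ctrl) or a GLIS3 guide (H47_KO), and the VP64 pair carried dCas9–VP64, an inactive Cas9 fused to an activation domain, with a guide of either kind (VP64_A and VP64_Ctrl). Each was a lentivirally transduced, drug-selected bulk population that received TGFβ and IL-1β at 10 ng/ml each for 0, 6, 12 or 24 h, with all wells collected together, and 3 libraries were made per condition, 48 in all. The cell line label reads "KO for GLIS3" on every sample, controls included. The study describes its in vitro replicates in general as independent biological ones. No label ties these libraries to separate cultures, and each line is a single transduced population, so p-values measure the spread between libraries of that population. The titles and the descriptions of the VP64 samples name opposite groups as the control, and the names used here follow the descriptions. GLIS3 itself stood at 13.5 to 38 CPM in VP64_A, 2.31 to 5.29 in VP64_Ctrl, 1.55 to 8.63 in H47_Ctrl and 0.146 to 2.46 in H47_KO, an order that goes with the descriptions and against the titles.

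Library totals lay between 2321990 and 10661004 estimated counts. All 10 fibroblast markers (among them COL1A1, PDGFRB and DCN) averaged 1 TPM or more, with a summed level of 15840 to 33653 TPM, and no endothelial, immune, melanocyte, Schwann or adipocyte marker did. KRT14 and KRT10 of the keratinocyte list and CNN1 and ACTA2 of the smooth muscle list also reached 1 TPM. The summed smooth muscle list stood at 503 to 2481 TPM in the H47 lines and at 31.5 to 147 TPM in the VP64 lines. The summed keratinocyte list stood at 18.04 to 84.6 TPM in VP64_A, 6.11 to 22.3 in VP64_Ctrl and 3.39 to 11.03 in the H47 lines. H47_Ctrl, which chose the members, and VP64_Ctrl thus differed in the smooth muscle list, and any bearing on the members was not tested. In the VP64_Ctrl 0 h libraries the 50 most abundant genes took 30.2% ± 6.25 (SD, n = 3) of the counts, against group means of 36.3% to 45% elsewhere. On plain CPM the median of all genes moved from 0 h by -0.80, -0.65 and -0.47 log2 units at 6, 12 and 24 h in VP64_Ctrl and by -0.60 at 6 h in H47_KO. Levels below are CPM on TMM-scaled library sizes, called normalized CPM, scaled within each pair. In bulk RNA a lower level can be fewer cells with the transcript or less of it per cell, and these cannot be told apart.

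Resting fibroblasts keep positional and lineage transcription factors, secreted modulators of WNT and BMP signalling, and adhesion molecules of the mesenchyme. TGFβ acts through receptor kinases and SMAD proteins and drives matrix production, whereas IL-1β acts through MyD88 and NF-κB and drives cytokines and chemokines. As a check of the treatment, the response genes IL6 and CXCL1, neither of them a member, rose in VP64_Ctrl by 9.44 ± 0.38 and 11.57 ± 0.51 on the log2 scale (edgeR's quasi-likelihood test).

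**Figure D1:**
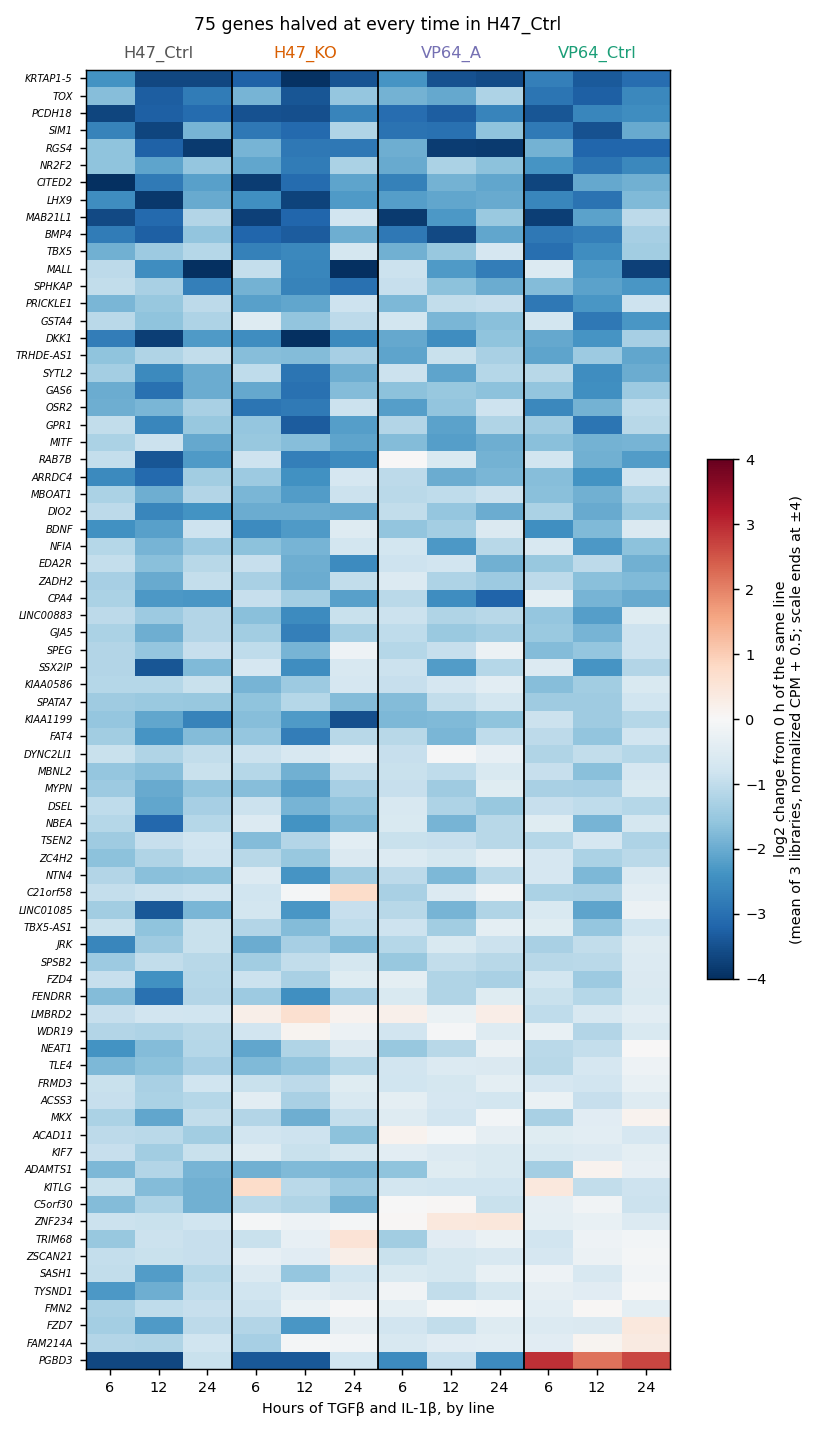
Heat map of the log2 change from 0 h of the same line, computed from the mean normalized CPM of 3 libraries with 0.5 added, for the 75 members (rows) at 6, 12 and 24 h in the 4 lines (columns), with a colour scale that ends at 4 in each direction. Blue, a lower level than at 0 h, runs across most rows in the 3 lines that did not choose the genes, and PGBD3 in the bottom row is red in VP64_Ctrl.

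In VP64_Ctrl, the line held out of the choice, 60 of the 75 members were called lower in the mean of 6, 12 and 24 h against 0 h (edgeR quasi-likelihood test, Benjamini-Hochberg adjusted over all 10980 genes tested), where 14.7% of all tested genes were called lower. The members' median log2 fold change was -1.27, that of all genes -0.03. One member, PGBD3, was called higher, a direction called for 16.8% of tested genes. In VP64_A 59 members were called lower (8.37% of tested genes; median -1.30), and in H47_KO 63 were (13.1%; median -1.73). No member was called higher in VP64_A or H47_KO. Without VP64_Ctrl 0 h replicate 3, the library farthest from the others in composition and left out after seeing the data, 57 members were called lower in VP64_Ctrl and 1 higher. All 75 members passed the filter on low counts in both pairs. Between the 3 lines, 54 members were called lower in every one, 7 in a pair of them, 6 in a single line and 8 in none. These joint counts were made for the members alone, so no share over all tested genes stands beside them. The 8 called in none were FAM214A, FMN2, KIF7, LMBRD2, TYSND1, WDR19, ZNF234 and ZSCAN21. LMBRD2 stood at the threshold in VP64_Ctrl (log2 -0.68, edgeR adjusted p = 0.0502) and was called lower there with DESeq2 (0.0494), with DESeq2 size factors (0.0469) and without any of 5 single libraries. WDR19 was called there with a replicate block (0.0463) and without any of 3 single libraries, and limma on log2(TPM + 1) called both.

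Libraries separated completely for many of these genes. In VP64_Ctrl every one of the 9 stimulated libraries lay below every 0 h library for 40 members (5.36% of tested genes), in VP64_A for 45 (4.27%) and in H47_KO for 48 (4.73%). The stricter rule that had selected the genes was met on plain CPM by 52 members in VP64_Ctrl, where it was met by 9.30% of the genes at 5 CPM or more at 0 h. With TMM scaling, 23 members met it there, against 0.929% of such genes. H47_KO and VP64_A gave 37 members (1.58%) and 33 members (1.22%) on plain CPM, and 28 (0.694%) and 20 (0.449%) with TMM scaling, under which H47_Ctrl itself kept 52 (0.653%).

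**Figure D2:**
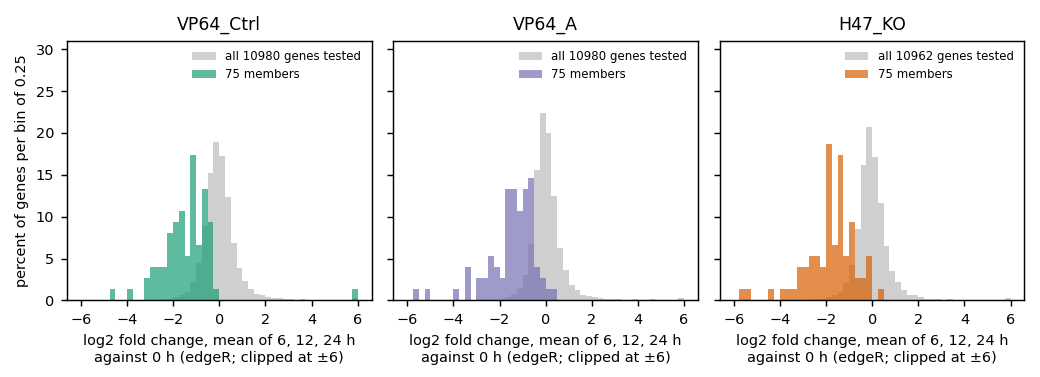
Histograms of the edgeR log2 fold change, mean of 6, 12 and 24 h against 0 h, in VP64_Ctrl, VP64_A and H47_KO (x axis, clipped at 6 in each direction), as the percent of genes per bin of 0.25 (y axis). Grey bars hold all genes tested and centre near 0, and coloured bars hold the 75 members, whose medians were -1.27, -1.30 and -1.73.

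The promoters printed here, from the RefSeq promoter table (GRCh38.p14), belong to 4 of the members with the largest falls in VP64_Ctrl. Each run holds the 250 bases before the annotated start, 5′ to 3′ on the gene's strand. Capitals mark letters that match, on either strand, TATAAA of the TATA box, CCAAT of the NF-Y element, GGGCGG of the GC box, CACGTG of the E-box, TGANTCA of AP-1 sites, GTAAACA of forkhead sites, GGAATG of TEAD sites or TGACG of cAMP-response elements. The windows are KRTAP1-5 on the minus strand at chr17:41027209-41027458, RGS4 on the plus strand at chr1:163068621-163068870, SIM1 on the minus strand at chr6:100464922-100465171 and PCDH18 on the minus strand at chr4:137532495-137532744.
KRTAP1-5: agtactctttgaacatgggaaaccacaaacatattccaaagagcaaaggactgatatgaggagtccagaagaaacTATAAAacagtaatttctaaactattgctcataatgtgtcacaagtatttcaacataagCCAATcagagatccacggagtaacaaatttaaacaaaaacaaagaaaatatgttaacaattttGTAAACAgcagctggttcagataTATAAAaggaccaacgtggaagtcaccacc
RGS4: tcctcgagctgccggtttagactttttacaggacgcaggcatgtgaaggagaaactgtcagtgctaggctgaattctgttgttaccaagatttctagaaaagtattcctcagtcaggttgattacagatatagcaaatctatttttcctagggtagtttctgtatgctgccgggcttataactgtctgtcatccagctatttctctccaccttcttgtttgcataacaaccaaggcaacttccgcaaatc
SIM1: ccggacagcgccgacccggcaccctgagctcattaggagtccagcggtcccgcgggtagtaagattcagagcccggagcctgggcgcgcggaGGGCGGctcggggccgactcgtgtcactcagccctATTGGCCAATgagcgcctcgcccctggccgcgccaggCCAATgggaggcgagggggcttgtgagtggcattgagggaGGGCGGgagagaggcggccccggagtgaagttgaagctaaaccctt
PCDH18: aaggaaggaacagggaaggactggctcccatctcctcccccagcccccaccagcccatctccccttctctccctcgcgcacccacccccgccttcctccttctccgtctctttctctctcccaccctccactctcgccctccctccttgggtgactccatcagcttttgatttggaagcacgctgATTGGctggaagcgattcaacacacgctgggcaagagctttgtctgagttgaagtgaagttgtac
The KRTAP1-5 window holds 4 matches, with TATAAA at 175 and 30 bases before the start, CCAAT at 116 and GTAAACA at 53. SIM1 holds 5, GGGCGG at 158 and 46 bases before the start and 3 of CCAAT, the nearest 86 bases before it. PCDH18 holds 1 match, CCAAT on the opposite strand 65 bases before the start, and RGS4 holds 0.

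Among the 62 members with a promoter in the table, these motifs were counted over the whole window, which adds 50 bases after the start. TATAAA was present in 10 (16.1%), against 5.12% of the 6798 genes at 5 CPM or more at 0 h in H47_Ctrl that have a promoter and 12.0% of all 27305 promoters. Its carriers were C21orf58, CPA4, DKK1, KIAA1199, KITLG, KRTAP1-5, MAB21L1, MYPN, RAB7B and SIM1. TGANTCA was in 7 (11.3% against 4.41% and 7.76%). GGGCGG was in 34 (54.8% against 71.8% and 44.6%), and TGACG in 15 (24.2% against 37.2% and 25%). CCAAT (22 members, 35.5% against 37.5%), CACGTG (6, 9.68% against 10.71%), GTAAACA (3, 4.84% against 2.09%) and GGAATG (11, 17.7% against 11%) make up the rest. The median promoter of a member had 61.5% G and C and an observed to expected CpG ratio of 0.766, and that of the expressed genes had 65.3% and 0.859. Members had a median of 7.5 exons (all expressed genes, 10), a gene span of 43595 bases (34453) and a 3′ UTR of 1953 bases (1359). The pentamer ATTTA occurred 2.97 times per kilobase of 3′ UTR at the median of 67 members, and 1.91 times over 7736 expressed genes. These values are descriptions with no test, and the interquartile range of the members' ATTTA density, 1.52 to 3.69, overlaps that of all genes, 0.521 to 3.32.

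In H47_Ctrl the members ranged from 5.10 to 1405 CPM at 0 h with a median of 12.1, 31 of them under 10 CPM and 4 over 100. At 6, 12 and 24 h the median member stood at 34.1%, 21.4% and 35.6% of its 0 h CPM. Without H47_Ctrl 6 h replicate 1 the rule chose 119 genes, 74 of the 75 among them. The lowest mean fell at 12 h for 43 members, at 6 h for 18 and at 24 h for 14. Just inside the limit were TBX5-AS1, FZD4 and ZNF234, whose highest later mean was 0.498, 0.495 and 0.490 of the 0 h mean, and just outside were LINC00909, SKP2 and PCYT2 at 0.501, 0.502 and 0.503. Of the 31 members under 10 CPM, 22 were called lower in VP64_Ctrl, and of the 44 at 10 CPM or more, 38 were. The share of all genes called lower at these levels was not counted, so nothing is read from this split.

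**Figure D3:**
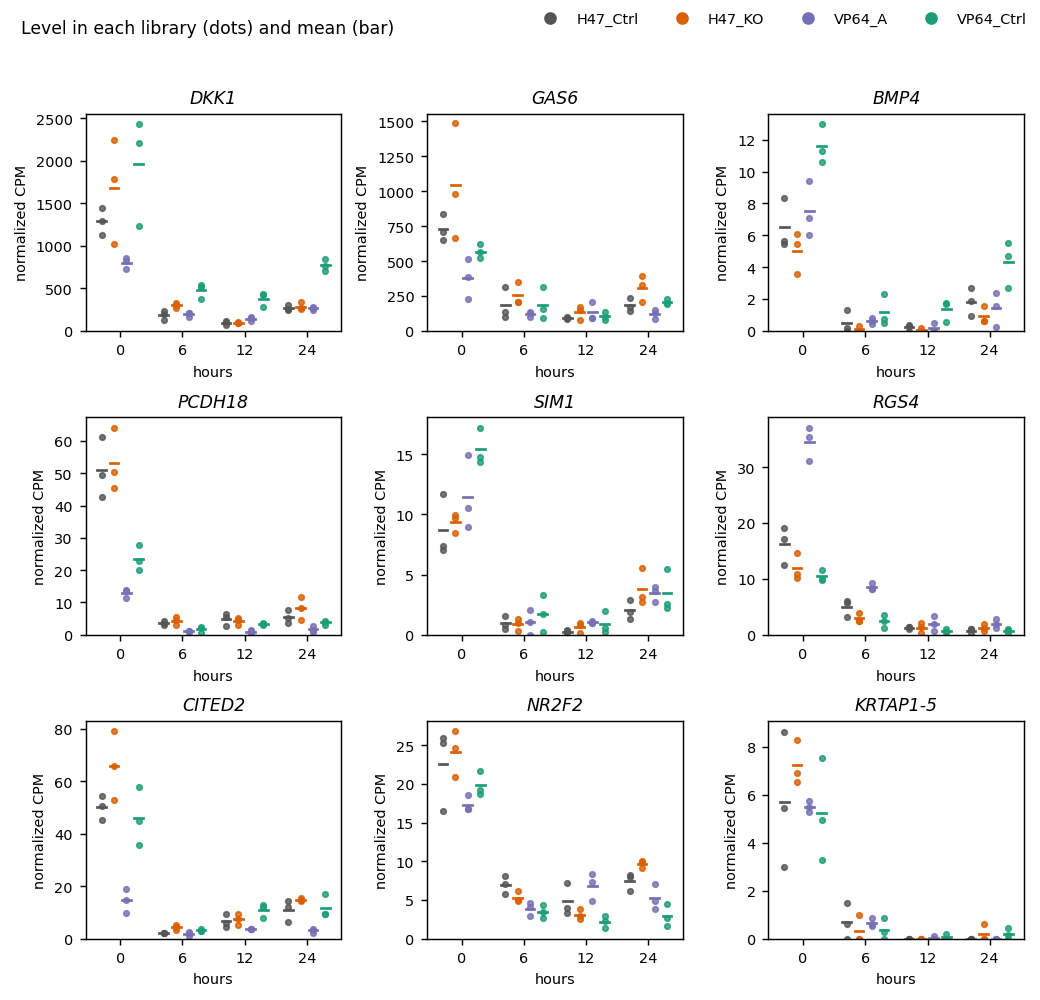
Normalized CPM (y axes, from 0) of 9 members in each of the 48 libraries (dots) with the mean of 3 (bars), by hours of TGFβ and IL-1β (x axes) and line (colours), scaled within each pair. In VP64_Ctrl every stimulated library of each of the 9 genes lies below every 0 h library.

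Secreted proteins held the most abundant members. DKK1, a secreted WNT antagonist that binds LRP5 and LRP6, had the highest 0 h level per length, 1287 TPM in H47_Ctrl. Its H47_Ctrl libraries read 1296, 1128 and 1441 normalized CPM at 0 h and 102, 67.6 and 114 at 12 h. The VP64_Ctrl libraries read 2206, 2438 and 1233.5 at 0 h, 369, 512 and 542 at 6 h, 427, 276 and 431 at 12 h, and 763, 847 and 707 at 24 h. No stimulated library reached the lowest 0 h library, and the fitted fall was 3.79-fold (log2 -1.92 ± 0.16 SE, edgeR adjusted p = 6.37e-11). GAS6, the ligand of the TAM receptor kinases AXL, TYRO3 and MERTK, was second at 505 TPM. It went from 563, 620 and 518 normalized CPM in VP64_Ctrl to 132, 77.8 and 99.4 at 12 h, and its libraries at 6 h, 315, 90.5 and 158, were widely spread but all lower than at 0 h (log2 -1.83 ± 0.24, adjusted p = 2.99e-07).

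BMP4, a ligand that signals through SMAD1, SMAD5 and SMAD9, was a rarer message. In VP64_Ctrl it read 11.3, 10.6 and 13 normalized CPM at 0 h, then 0.715, 0.504 and 2.32 at 6 h and 2.69, 5.5 and 4.72 at 24 h (log2 -2.75 ± 0.32, edgeR adjusted p = 5.07e-08). H47_KO held 1 count of BMP4 over its 3 libraries at 6 h and 1 at 12 h. BDNF, a neurotrophin that acts through the receptor TrkB, fell by 1.73 ± 0.20 on the log2 scale (adjusted p = 4.82e-08). The laminin-related netrin NTN4 fell by 1.05 and the carboxypeptidase CPA4 by 1.59, and both were called in all 3 lines. ADAMTS1, a secreted protease that cleaves proteoglycans, had 122, 187 and 89.0 normalized CPM at 0 h in VP64_Ctrl, 52.8, 52.4 and 50.4 at 6 h and 151, 119 and 167 at 12 h. The 6 h libraries alone stood apart, and the mean over the 3 times, -0.52 ± 0.16, moved to -0.20 (adjusted p = 0.399) without 0 h replicate 2. KITLG, the ligand of the KIT receptor, was not called in VP64_Ctrl (-0.54 ± 0.28, adjusted p = 0.144), and its libraries there read 11.7, 13.5 and 12.5 at 0 h and 12.2, 17.6 and 21.4 at 6 h. KIAA1199, now named CEMIP and needed for hyaluronan breakdown, was low in VP64_Ctrl (0.991 to 4.03 normalized CPM at 0 h), where its call (-1.58 ± 0.47) was lost without 0 h replicate 3 (-0.84, adjusted p = 0.237). In H47_KO it went from 20.2 to 24.6 normalized CPM at 0 h to 0.909 to 2.08 at 24 h. Of the 9 members in this class, 8 were called lower in VP64_Ctrl, 9 in VP64_A and 8 in H47_KO, with class medians of -1.59, -1.59 and -1.91. This and the class counts below stand beside 60, 59 and 63 of all 75 members called lower in the same lines.

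Transcription factors and co-regulators formed the largest class, 15 members, of which 13 were called lower in VP64_Ctrl, 12 in VP64_A and 13 in H47_KO (medians -1.96, -1.60 and -2.15). SIM1, a bHLH-PAS factor of the hypothalamus and kidney, read 14.8, 17.2 and 14.3 normalized CPM at 0 h in VP64_Ctrl and 0.591, 0.182 and 1.99 at 12 h (log2 -3.10 ± 0.35, edgeR adjusted p = 1.73e-08). LHX9, a LIM-homeobox factor of limb and gonad, went from 15.4, 13.3 and 8.81 to 0.394, 2.00 and 1.14 at 12 h (-2.71 ± 0.27). NR2F2 (COUP-TFII), an orphan nuclear receptor of mesenchyme and veins, went from 19.2, 18.7 and 21.7 to 1.38, 2.91 and 2.27 (-2.78 ± 0.21, adjusted p = 4.78e-12). None of these 3 genes overlapped between 0 h and later libraries. CITED2, a CBP/p300-binding co-regulator that restrains HIF-1α, showed its lowest values at 6 h, where its VP64_Ctrl libraries held 3.00, 3.02 and 3.47 normalized CPM against 35.5, 44.8 and 57.8 at 0 h (-2.63 ± 0.19, adjusted p = 1.77e-12).

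The limb and tendon factors TBX5, OSR2, MAB21L1 and MKX did not move alike. TBX5, a T-box factor of forelimb and heart, read 26.3, 15.6 and 37.6 normalized CPM at 0 h in VP64_Ctrl, 2.29, 3.28 and 2.9 at 6 h and 9.41, 6.15 and 14 at 24 h (log2 -2.41 ± 0.22, edgeR adjusted p = 1.76e-10). MAB21L1, a developmental regulator of eye and limb, fell from 60.9, 60.2 and 54.5 to 4.43, 2.52 and 4.63 at 6 h and stood at 27.5, 26.2 and 29.98 at 24 h (-2.41 ± 0.15). OSR2, an odd-skipped zinc-finger factor, fell by 1.94 ± 0.20. MKX, a tendon homeobox factor, fell least, from 24.0, 22.5 and 11.5 to 7.01, 10.6 and 5.21 at 6 h, with 25.3, 25.6 and 13.9 at 24 h. The 24 h libraries of MKX overlapped those at 0 h. Its call over the 3 times (-0.56 ± 0.22, adjusted p = 0.0492) was lost with DESeq2 (adjusted p = 0.0649) and on leaving out any of 8 single VP64_Ctrl libraries, both 0 h replicates 1 and 2 among them. TOX, an HMG-box factor known from T cells, was rare but near 0 after treatment, with 6.94, 8.36 and 7.62 normalized CPM at 0 h and 0.197, 0 and 0.852 at 12 h (-3.82 ± 0.48). MITF, a bHLH-zipper factor, and NFIA, a nuclear factor I member, fell by 1.96 and 1.90, and TLE4, a Groucho co-repressor, by 0.68, all called in each of the 3 lines. The zinc-finger genes ZNF234 (-0.50) and ZSCAN21 (-0.40) were not called in any of them.

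Receptors and adhesion proteins gave 6 of 7 members called lower in VP64_Ctrl and 7 of 7 in each of VP64_A and H47_KO. PCDH18, a non-clustered protocadherin, had the clearest drop of this class, from 20.1, 22.8 and 27.8 normalized CPM at 0 h in VP64_Ctrl to 2.15, 2.52 and 0.579 at 6 h, and it was still at 4.33, 2.91 and 4.08 at 24 h (log2 -2.97 ± 0.24, edgeR adjusted p = 1.09e-11). FAT4, an atypical cadherin of planar polarity and Hippo signalling, fell by 1.18 ± 0.21, and GJA5, the gap-junction protein connexin 40, by 1.43 ± 0.18. The frizzled receptors FZD4 and FZD7, which bind WNT ligands, differed in their calls. FZD4 read 20.6, 20.02 and 21.4 normalized CPM at 0 h and 6.11, 8.01 and 7.67 at 12 h (-0.95 ± 0.15, adjusted p = 1.10e-05). FZD7 stood at 5.37, 3.81 and 6.12 at 0 h in VP64_Ctrl and at 6.87, 8.41 and 5.61 at 24 h (-0.33 ± 0.31, adjusted p = 0.441), and was called lower in VP64_A and H47_KO.

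RGS4, which speeds up GTP hydrolysis by Gα subunits, was among the signalling modulators, of which 7 of 8 were called lower in VP64_Ctrl. It read 9.99, 9.76 and 11.5 normalized CPM at 0 h there, 3.58, 2.52 and 1.16 at 6 h and 0.897, 0.971 and 0.255 at 24 h (log2 -3.24 ± 0.27, edgeR adjusted p = 3.03e-11). SPHKAP, an A-kinase anchoring protein, fell by 2.12 ± 0.25, and ARRDC4, an arrestin-domain protein induced by MondoA, by 1.77 ± 0.25. PRICKLE1, a planar cell polarity component, fell by 2.21. C5orf30, now MACIR, a modulator of macrophage and synovial fibroblast inflammation, was the third most abundant member per length at 177 TPM. In VP64_Ctrl it read 168, 187 and 148 normalized CPM at 0 h, 158, 128 and 167 at 12 h and 77.8, 107 and 93.0 at 24 h. Only its 24 h libraries lay fully below those of 0 h, and its call over the 3 times (-0.46 ± 0.13) went to an adjusted p of 0.058 without 0 h replicate 2.

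KRTAP1-5, a hair keratin-associated protein with close relatives among which its reads could be split, had the largest fitted fall, and its libraries were close to empty after treatment. In VP64_Ctrl it read 7.51, 4.96 and 3.29 normalized CPM at 0 h and 0, 0.182 and 0 at 12 h (log2 -4.54 ± 0.46, edgeR adjusted p = 4.46e-09). H47_Ctrl held 0 counts over its 3 libraries at 12 h and again at 24 h, so that plain CPM was at least 18.2-fold and at least 25.4-fold lower than at 0 h (a floor of 3 counts over the group, counting error only). H47_KO at 12 h and VP64_A at 24 h also held 0 counts, at least 50.8-fold and 30.01-fold lower. MALL, a MAL-like proteolipid of membrane rafts, fell by 2.71 ± 0.31 in VP64_Ctrl and SYTL2, a Rab27 effector, by 2.16. The sarcomere-related genes MYPN and SPEG fell by 1.10 and 1.55. This class of trafficking, membrane and cytoskeletal genes gave 7 of 9 calls in each of the 3 lines. Only 2 members in VP64_A and 3 in H47_KO had a group at 0 counts. These lay below the median of all members (-1.30 and -1.73) both as fitted and at their bound. Setting them to the bound therefore could not move the medians, which say nothing on the effect of the floor.

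The cilium and centrosome genes had 4 of 6 called lower in VP64_Ctrl, 2 in VP64_A and 3 in H47_KO (medians -1.22, -0.62 and -1.07). The median of all members was -1.27, -1.30 and -1.73. The class median was thus a smaller fall in each line, though by little in VP64_Ctrl, and the difference was not tested. SPATA7, a ciliary connecting protein of photoreceptors, fell by 1.42 and SSX2IP, a centrosome anchor, by 1.54 in VP64_Ctrl, both called in every line. The intraflagellar transport gene WDR19 and the kinesin KIF7 of Hedgehog signalling had values of -0.89 and -0.57 and passed in none. Among the 8 metabolic enzymes 5 were called lower in VP64_Ctrl, 5 in VP64_A and 7 in H47_KO. GSTA4, which conjugates glutathione to lipid aldehydes, fell by 2.49 ± 0.35 and DIO2, which converts thyroxine to its active form, by 2.12. The acyl-CoA enzymes ACAD11 (-0.53) and ACSS3 (-0.61) were called in H47_KO only, with no test of a difference between lines. RNA-binding, RNA-processing and other proteins, PGBD3 among them, gave 4 of 7 calls in each of the 3 lines. The medians of that class were -1.09 in VP64_Ctrl, -0.77 in VP64_A and -1.28 in H47_KO.

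The non-coding transcripts, 5 long non-coding RNAs and LINC01085, which GENCODE annotates as a transcribed processed pseudogene, were called lower in all 3 lines, 6 of 6 each time (medians -1.12, -1.09 and -1.79). NEAT1, the scaffold of paraspeckles, read 6.61, 6.95 and 7.17 normalized CPM at 0 h in VP64_Ctrl, 1.57, 4.54 and 2.9 at 6 h and 4.78, 8.41 and 7.66 at 24 h. Its 24 h libraries overlapped those at 0 h, and its call (log2 -0.77 ± 0.28, edgeR adjusted p = 0.0357) was lost on leaving out any of 6 single libraries, among them each of the 3 at 0 h. FENDRR, a lung and heart mesenchyme transcript next to FOXF1, had values of -1.02, -1.07 and -1.89 in VP64_Ctrl, VP64_A and H47_KO, and the first lost its call without 0 h replicate 1 or 3 (edgeR adjusted p = 0.0830 and 0.0781). LINC01085 lost its call in VP64_Ctrl without 0 h replicate 1 (-1.09, adjusted p = 0.0647). TBX5-AS1 starts next to TBX5 on the other strand, and the counting strand is not given in the sources used here, so reads of this pair may not be told apart.

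PGBD3 is an uncertain member. Its annotated span (GRCh38.p14, chr10:49515105-49524281) lies inside ERCC6 (chr10:49434881-49539538), with which it shares transcripts, and Salmon divides reads between overlapping transcripts. Its estimated counts were 0 in 34 of 48 libraries and reached 81.6 in the others, whereas ERCC6 held 8.09 to 192 in each library. PGBD3 was 0 in all 3 VP64_Ctrl libraries at 0 h and in 4 of the 9 stimulated ones. The call of a rise in VP64_Ctrl was not made by DESeq2 (adjusted p = 0.254) or by limma on log2(TPM + 1) (adjusted p = 0.0704), and it was lost without 0 h replicate 1 or 2 (0.0532 and 0.0539) or 12 h replicate 2 (1.00). In VP64_A and H47_KO it was among the members called lower. Its estimated counts at 0 h were 81.6, 0 and 0 in VP64_A, so that fall rests on a single 0 h library. In H47_KO they were 31.3, 60.4 and 0 at 0 h, and a 24 h library there held 57.2. Without PGBD3, 60 of 74 members were called lower in VP64_Ctrl and 0 higher.

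The single times in VP64_Ctrl gave 45 members called lower at 6 h (12.6% of tested genes), 59 at 12 h (11.5%) and 39 at 24 h (5.57%), with medians of -1.17, -1.73 and -0.86. At all 3 times 28 members were called, at a pair of times 23, at a single time 13 and at none 11, again counted for the members alone. On log2(TPM + 1) with limma, where the median of all genes at 6 h was -0.65, 68 members were called lower at 6 h, but so were 49.6% of all genes tested. For the mean of the 3 times edgeR on TMM-scaled counts called 1840 genes higher and 1619 lower, and limma on log2(TPM + 1), which differs in unit, scaling and test at once, called 534 higher and 5152 lower.

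The later course differed among members and was tested as 24 h against 6 h, a contrast that uses no 0 h library. In VP64_Ctrl 18 members were higher at 24 h than at 6 h and 7 (9.33% of members) were lower, against 8.98% and 9.45% of all tested genes. The share of members lower at 24 h was thus that of genes in general. In H47_KO 17 were higher and 11 lower, each against 12.1%, and in VP64_A 8 were higher (5.80%) and 8 lower (6.72%). Members higher at 24 h in both VP64_Ctrl and H47_KO were BDNF, CITED2, FZD7, KIAA0586, MAB21L1, NEAT1, OSR2, PRICKLE1 and TBX5, and those lower in both were C5orf30, KITLG, MALL and RAB7B. In all 3 lines BDNF, MAB21L1, NEAT1, OSR2 and TBX5 were higher and C5orf30, MALL and RAB7B lower. CITED2 (0.83, edgeR adjusted p = 0.221), FZD7 (0.18, 0.863) and KITLG (-0.10, 0.904) were not called in VP64_A, and the differences between lines were not tested. MAB21L1 rose by 2.87 ± 0.25 on the log2 scale in VP64_Ctrl (edgeR adjusted p = 1.48e-10) and by 3.12 ± 0.28 in H47_KO. TBX5 rose by 1.90 ± 0.36 and 2.33 ± 0.46, and BDNF by 2.12 ± 0.32 and 2.16 ± 0.35. BMP4 rose by 2.18 ± 0.57 in VP64_Ctrl and had a value of 2.71 ± 1.18 in H47_KO (adjusted p = 0.0915). Of the 18 that rose in VP64_Ctrl, 8 were still called lower at 24 h than at 0 h. Of the 15 transcription factors and co-regulators 7 rose and 0 fell between 6 and 24 h in that line. Leaving out VP64_Ctrl 6 h replicate 1 reduced the 25 calls to 16, 10 higher and 6 lower.

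MALL went the other way. Its VP64_Ctrl libraries read 11.1, 11.1 and 12.2 normalized CPM at 0 h, 6.58, 7.06 and 9.27 at 6 h, 2.56, 0.911 and 2.56 at 12 h and 0.448, 0.647 and 0.128 at 24 h, so that each time lay below the one before. Between 6 and 24 h it fell by 4.33 ± 0.56 on the log2 scale in VP64_Ctrl (edgeR adjusted p = 6.60e-07) and by 6.17 ± 0.57 in H47_KO. RAB7B, a GTPase of late endosomes and the Golgi, fell by 2.13 ± 0.66 and 2.22 ± 0.52. RGS4 and CPA4 fell by 2.09 and 1.87 in VP64_Ctrl, and their values in H47_KO, -1.09 and -1.85, did not pass (adjusted p = 0.0993 and 0.0864). In VP64_A both were called lower, with values of -2.22 and -2.40 (edgeR adjusted p = 8.25e-05 and 1.64e-06). KITLG fell by 1.38 ± 0.39 in VP64_Ctrl and 2.52 ± 0.43 in H47_KO over this interval. In H47_KO it had read 32.9, 23.8 and 19.3 normalized CPM at 6 h against 17.7, 11.8 and 15.8 at 0 h. That change from 0 h to 6 h was not called (log2 0.75 ± 0.37, edgeR adjusted p = 0.145).

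**Figure D4:**
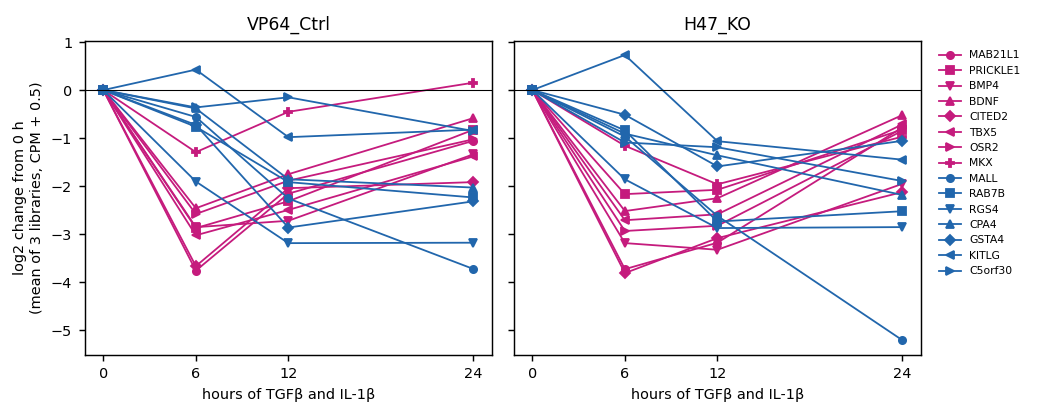
Mean log2 change from 0 h (y axis, normalized CPM with 0.5 added, 3 libraries per point) at 0, 6, 12 and 24 h (x axis) in VP64_Ctrl and H47_KO for 8 members higher at 24 h than at 6 h in VP64_Ctrl (pink) and the 7 that were lower (blue). Pink lines reach their lowest points at 6 or 12 h and then climb, and MALL descends at every step.

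In the VP64 pair the 2 populations differed before any cytokine was added. At 0 h 17 members were lower in VP64_A than in VP64_Ctrl and 4 were higher (edgeR), against 5.12% and 4.29% of tested genes. SPHKAP read 1.20, 0.754 and 3.13 normalized CPM in VP64_A and 22.9, 21.8 and 27.5 in VP64_Ctrl (log2 -3.90 ± 0.38, adjusted p = 7.89e-09). DKK1 read 853, 732 and 818 in VP64_A, all below the VP64_Ctrl libraries given above (-1.29 ± 0.22, adjusted p = 1.57e-04). MKX (5.57, 4.02 and 5.43 in VP64_A; -1.96 ± 0.29) and CITED2 (14.7, 9.92 and 18.9; -1.67 ± 0.24) were also lower. The 4 higher in VP64_A were KIAA1199, CPA4, RGS4 and FRMD3. RGS4 read 37, 31 and 35.4 there (1.73 ± 0.26), and CPA4 38.8, 41.8 and 35 against 10.6, 9.93 and 10.6 (1.89 ± 0.25, adjusted p = 2.87e-06).

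Most of these differences were also seen under stimulation. Over the mean of 6, 12 and 24 h, 22 members were lower in VP64_A and 8 higher (5.78% and 5.98% of tested genes), and 14 of the lower and 4 of the higher were the same genes as at 0 h. This overlap was counted for the members alone, so whether it differs from that of genes in general is not known. DKK1 differed by -1.41 ± 0.13 and MKX by -1.92 ± 0.20. PRICKLE1 (1.48 ± 0.29, edgeR adjusted p = 3.38e-04) and NR2F2 (0.84 ± 0.20) were higher in VP64_A under stimulation and were not called at 0 h (adjusted p = 0.366 and 0.715). PCDH18 passed at 0 h with an adjusted p of 0.0494 and differed by -1.31 ± 0.28 under stimulation. Each line is 1 selected population, so the guide and the population cannot be told apart.

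The change from 0 h itself was compared between VP64_A and VP64_Ctrl with an interaction term. Of the 75 members 0 were called by edgeR, against 0.10% lower and 0.182% higher over all tested genes. At an unadjusted p under 0.05 there were 5 (2 lower and 3 higher), DESeq2 called 0, and limma on log2(TPM + 1) called 2, SPHKAP and TOX, both with a difference above 0 (1.61 ± 0.30 and 1.33 ± 0.27). For SPHKAP this is the opposite sign to the edgeR value, -0.47 ± 0.54. The difference in log2 change was -0.12 ± 0.25 for DKK1, 0.04 ± 0.37 for MKX, -0.16 ± 0.45 for RGS4 and 1.03 ± 0.32 for NR2F2 (adjusted p = 0.178). With standard errors of this size a modest difference would not have been detected.

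**Figure D5:**
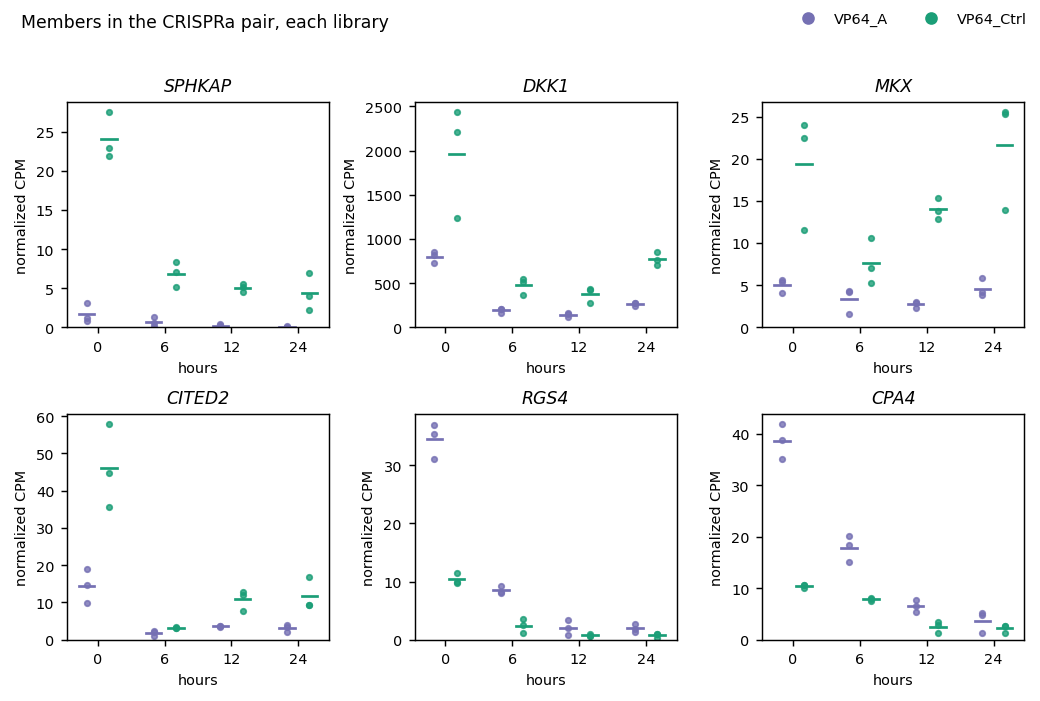
Normalized CPM (y axes, from 0) of SPHKAP, DKK1, MKX, CITED2, RGS4 and CPA4 in each VP64_A and VP64_Ctrl library (dots; bars are means of 3) by hours of TGFβ and IL-1β (x axes). At 0 h the first 4 are lower and the last 2 higher in all VP64_A libraries than in all VP64_Ctrl libraries.

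H47_KO and H47_Ctrl are set side by side without a test, since H47_Ctrl chose the genes. The median log2 difference of the 75 members (H47_KO minus H47_Ctrl, mean normalized CPM with 0.5 added) was -0.05 at 0 h, 0.09 at 6 h, 0.01 at 12 h and 0.26 at 24 h, when 52 members were higher in H47_KO and 23 lower. Members were chosen for low later means in H47_Ctrl, which tilts the later differences toward H47_KO. The share of all genes higher in H47_KO was not counted, so nothing is read from this count. KITLG was farthest below at 0 h (-1.02) and GJA5 farthest above (1.03). The members' summed plain CPM went from 3804 ± 167 (SD, n = 3) at 0 h to 596 ± 60.4 at 12 h and 872 ± 55.9 at 24 h in H47_Ctrl, and from 4785 ± 449 to 594 ± 26.1 and 1427 ± 444 in H47_KO. DKK1 and GAS6 made up most of the 0 h sum, and without them it went from 1604 ± 98.4 to 415 ± 45.6 at 12 h in H47_Ctrl and from 1742 ± 383 to 384 ± 18.3 in H47_KO.

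Pathway lists set these genes beside others that were not members, and 12 of the 75 stood in any of the 24 lists and name patterns. For comparison, 14.7% of all tested genes were lower and 16.8% higher in VP64_Ctrl, 8.37% and 13.1% in VP64_A, and 13.1% and 13.6% in H47_KO. Of 13 tested genes of the WNT list 5 were lower in VP64_Ctrl and 4 higher (list median -0.22, all genes -0.03), in VP64_A 6 of 13 were lower and 0 higher (-0.79), and in H47_KO 5 of 14 were lower and 2 higher (0.24). In VP64_Ctrl the lower genes were DKK1, FZD4, SFRP1 (-1.09), FZD2 (-1.37) and LRP5 (-1.75), and WNT5A, WNT5B, DKK3 and FZD6 rose. In the BMP list 5 of 11 fell and 1 rose in VP64_Ctrl (median -0.58), 4 of 11 and 0 in VP64_A (-0.52), and 5 of 13 and 1 in H47_KO (-0.32). Those that fell in VP64_Ctrl were BMP4, the receptor SMAD SMAD9 (-1.73) and ID1 (-2.69 ± 0.15), ID2 (-1.57) and ID3 (-1.17), transcriptional targets of BMP signalling, and the BMP antagonist GREM1 rose (1.11). Among 19 tested genes linked to quiescence and FOXO 5 fell in VP64_Ctrl, CITED2, GAS6, ARRDC4, BCL6 and TRIB2, and 3, PIK3IP1, YPEL5 and BTG1, rose. The counts were 5 of 19 lower and 1 higher in VP64_A, and 7 of 21 and 3 in H47_KO. The WNT list holds 3 members (DKK1, FZD4 and FZD7), the BMP list 1 (BMP4) and the quiescence list 3 (ARRDC4, CITED2 and GAS6). Members were chosen for a fall, which raises the lower counts of these lists. Counts without the members were not made, so nothing is read from the shares. Other members stood in larger lists, with LHX9 (homeobox, 6 of 24 lower in VP64_Ctrl), NR2F2 (nuclear receptors, 3 of 16), TBX5 (forkhead, T-box, KLF, SOX and bHLH, 10 of 41), NTN4 (axon guidance, 8 of 31) and ZNF234 (genes named ZNF, 29 of 353), and nothing is read from these counts.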

How the data were processed

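RNA was measured in 48 libraries, 3 per line and time, and the authors deposited 2 gene tables from Salmon, of estimated counts and of TPM. Per the labels and methods, reads passed through bcl2fastq, FastQC, Trim Galore, SortMeRNA and STAR on GRCh38, and differential expression used DESeq2. Tool versions, annotation and counting strand are not given in the sources used here. Estimated counts, of which 6.38% were not whole, were rounded for the tests. Salmon divides reads between overlapping or near-identical transcripts, which makes such genes less certain. Each pair of lines was fitted with edgeR 4.0.16 (R 4.3.3; TMM scaling; filterByExpr with a minimum count of 10 and a minimum total of 15; quasi-likelihood test; 1 coefficient per line and time; no replicate term), and p-values were adjusted over all genes tested, with a threshold of 0.05. Contrasts were the mean of 6, 12 and 24 h against 0 h, each time against 0 h, 24 h against 6 h, VP64_A against VP64_Ctrl, and their interaction. H47_Ctrl, which chose the members, was described with no test. DESeq2 1.42.0, limma 3.58.1 with the TPM values in log2 form after adding 1 or 0.1, other scalings, no filter and left-out libraries were alternatives. Scripts were tested on simulated data. Libraries of 2321990 to 10661004 counts limit members at a few CPM, and floors cover counting error only. Same-numbered libraries did not deviate together. The members and lists were chosen with earlier results of these data known, and the role classes after the members were known. Genes were named by fixed rules of level, size of change, call and list, and other named genes were chosen after their values were seen. Gene names follow the deposited tables, and promoters and positions are from RefSeq (GRCh38.p14) and gene structure from GENCODE v44. One item of the treatment check is not reported here.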

Additional observations from a re-analysis of the deposited data

How the results depend on the processing

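Counts of members were recomputed under other tools, scalings, filters and units, and 100 of these counts lay within 1.5 times the reported one and 9 past it. With limma on log2(TPM + 1), 68 members were called at 6 h in VP64_Ctrl (45 reported), 18 between VP64_A and VP64_Ctrl under stimulation (30 reported) and 2 in the interaction, and on log2(TPM + 0.1) 10 were called at 0 h between these lines (21 reported). The interaction gave 1, PGBD3, with no filter. The rule was met by 44 genes in H47_Ctrl at a minimum of 10 CPM, by 20 members in VP64_A and 23 in VP64_Ctrl with TMM scaling, and by 19 in VP64_A on TPM. The cause of these shifts was not tested. A fit of only the libraries compared is the reported fit for the interaction, so it was not run again there.

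Leaving out 1 library at a time gave 155 counts within 1.5 times and 7 past it. For the mean of the 3 times the calls ranged from 56 to 61 in VP64_Ctrl, 50 to 58 in VP64_A and 59 to 64 in H47_KO. At 6, 12 and 24 h in VP64_Ctrl they ranged from 39 to 44, 50 to 54 and 34 to 37. For 24 h against 6 h the range was 16 to 21 in VP64_Ctrl, the lowest without 6 h replicate 1, and 19 to 28 in H47_KO. Between VP64_A and VP64_Ctrl it was 15 to 19 at 0 h, 27 to 30 under stimulation and 0 to 1 for the interaction. The rule was met by 62 to 119 genes in H47_Ctrl, the highest without 6 h replicate 1, and by 26 to 48, 29 to 35 and 35 to 57 members in H47_KO, VP64_A and VP64_Ctrl. Of the fold changes of single members in VP64_Ctrl, 1143 kept direction and side of the threshold, 28 lost the call, 26 gained one and 2 changed sign, both FAM214A (-0.06 reported), which ranged from -0.34 without 0 h replicate 3 to 0.46 without 0 h replicate 1 and stood at 0.00027 without 12 h replicate 3.

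Replicate numbers gave no sign of pairing, with correlations of same-numbered libraries between -0.181 and 0.190. With a replicate block the counts were 61, 59 and 64 for the mean of the 3 times in VP64_Ctrl, VP64_A and H47_KO, 45, 59 and 40 at 6, 12 and 24 h, 25 and 27 for 24 h against 6 h, and 21, 30 and 0 between VP64_A and VP64_Ctrl. Members of a few CPM carry the widest errors, and smaller changes in them would not have been detected.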

Other observations

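Some gene groups that hold no member were also counted by edgeR in the mean of 6, 12 and 24 h against 0 h, where 14.7% of all tested genes were lower and 16.8% higher in VP64_Ctrl. Of 10 tested detoxification and antioxidant genes 5 were lower and 1 higher there (median log2 -0.39), and 7 of 10 were lower and 0 higher in H47_KO, where 13.1% of all tested genes were lower. Of 16 G-protein-coupled receptors 9 were lower and 6 higher in VP64_Ctrl, 5 and 6 of 16 in VP64_A, and 6 and 5 of 15 in H47_KO. Of 15 growth factor and cytokine receptors 6 were lower and 3 higher in VP64_Ctrl, and 3 and 2 of 15 in VP64_A. In H47_KO 2 of 17 of these receptors were lower and 2 higher. All 19 tested interferon-stimulated genes were higher in VP64_Ctrl (median 1.87) and in VP64_A (2.33). In H47_KO 14 of 19 were higher and 1 was lower (median 1.25), where 13.6% of all tested genes were higher. None of these lists was tested as a set.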
